A study of Danio rerio with 24 samples.

Results

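The genes of the proteasome, described here in larval zebrafish livers, are all rows of the count table whose symbol begins with psma to psmg. This gave 59 of 32520 genes. By role, 10 encode 20S alpha subunits, 7 encode constitutive 20S beta subunits, 7 encode 19S ATPases and 14 encode 19S non-ATPase subunits. These 38 genes are called core subunits below. A further 3 genes encode 19S assembly chaperones, 3 encode 20S assembly chaperones, 5 encode activators, 1 encodes an inhibitor and 7 encode immune-type or thymus-type beta subunits. The remaining 2, PSMC3IP and PSME3IP1, carry the name of a proteasome gene but are interacting proteins and not subunits. Symbols are printed as the gene table gives them, which for many zebrafish genes is the human symbol. A symbol shared by 2 genes (PSMA6, PSMD2, PSMD11 and PSME4) is followed by the Ensembl gene ID, of which the plots show the last digits.

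The proteasome is the main protein-degrading machine of the cytosol and nucleus. Its 20S core is a barrel of alpha and beta rings, in which 3 of the beta subunits carry the protease sites, and its 19S cap binds ubiquitin-tagged proteins, removes the tag and threads the chain into the barrel with a ring of ATPases. Assembly chaperones build both parts, other caps and an inhibitor act on the open barrel, and interferon signals can replace the catalytic beta subunits by immune-type counterparts. The liver carries a high load of protein synthesis and turnover, and oncogenic and chaperone roles have been described for one 19S assembly factor, gankyrin (PSMD10), in human liver cancer.

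Livers were dissected from zebrafish larvae at 13 days postfertilization (dpf) and 13 livers of 1 clutch were pooled per library. From 6 dpf the larvae ate a normal control diet (NCD, the commercial GEMMA Micro 75) or a high-cholesterol diet (HCD, the same food with 10% cholesterol by weight). Larvae were non-transgenic wild-type siblings (WT) or carried Tg(fabp10a-miR21OE), in which the hepatocyte promoter fabp10a drives the precursor dre-mir-21-1 together with the fluorescent protein Dendra2, with a lens marker on the same construct (miR-21OE). No group carried the transgene without dre-mir-21-1, so miR-21 overexpression here names transgenic against WT livers. The 24 libraries were 9 WT-NCD, 9 WT-HCD, 3 miR-21OE-NCD and 3 miR-21OE-HCD. The labels give 9 batches: batches 1 to 6 held 1 WT-NCD and 1 WT-HCD library each, and batches 7 to 9 held 1 library of each of the 4 groups. Differences were therefore taken within batches.

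Depth ranged from 16942574 to 36641566 counts per library, and the 59 genes took 0.0971% to 0.220% of them. In batches 1 to 4 the small cytoplasmic RNA rn7sl1 took 1.72% to 2.77% of the counts, against 6.45% to 13.1% in batches 5 to 9. In batches 7 to 9, MIR21 (ENSDARG00000082187) measured 5.38 to 10.8 CPM (counts scaled to a common library size) in the miR-21OE libraries and 0.523 to 5.33 CPM in the WT libraries. The summed level of 8 hepatocyte markers was lowest in WT-HCD of batch 1 (11678 CPM) and WT-HCD of batch 6 (20950 CPM), against at least 29318 CPM in the other 22 libraries. The same 2 libraries had the highest summed leukocyte markers (13 genes), 112.5 and 372.7 CPM, against 16.1 to 54.5 CPM elsewhere. With library totals, the lowest hepatocyte sum was 24523 CPM in batches 1 to 4, again in WT-HCD of batch 1. In batches 5 to 9 it was then 27957 CPM, in WT-HCD of batch 7. The rank of WT-HCD of batch 6 on hepatocyte markers thus depends on the scaling. These shifts were not confined to the 2 libraries: within batches, leukocyte markers were higher in WT-HCD than in WT-NCD in 9 of 9 pairs (with library totals also 9 of 9), and hepatocyte markers were lower in 8 of 9 (with library totals 7 of 9). Endothelial markers (4 genes) were lower in miR-21OE than in WT in 6 of 6 within-batch pairs (with library totals 5 of 6). Exocrine pancreas markers (8 genes) ranged from 244.2 to 41694 CPM, with the maximum in miR-21OE-NCD of batch 9. In these bulk samples, fewer cells of a type and less RNA per cell cannot be told apart.

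Of the 59 genes, 57 had counts. PSMB11 and psmb11b, thymus-type beta subunits known from cortical thymic epithelium in mammals, had 0 counts in all 24 libraries, which allows up to 0.0819 to 0.177 CPM per library (3 counts, counting error only). All 38 core subunits were counted in every library. The core subunit with the fewest counts was psma6l, with 14 to 176, and the next was PSMA2, with 68 to 517. Counts do not correct for transcript length, so levels were not ranked between genes. CPM values were scaled by the trimmed mean of M-values (TMM) over the 24 libraries.

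The catalytic subunits were examined first. PSMB5 (chymotrypsin-like site) measured 17.6 to 38.3 CPM in WT-NCD, with a median of 22.5, and 18.3 to 44.9 CPM in WT-HCD, with a median of 20.5. It measured 19.02, 41.4 and 32.5 CPM in miR-21OE-NCD and 19.6, 35.9 and 39.8 CPM in miR-21OE-HCD of batches 7, 8 and 9. All 4 groups overlapped, and within batches 8 and 9 every library lay above every library of batch 7. PSMB6 (caspase-like site) measured 8.20 to 30.6 CPM in WT-NCD, with a median of 22.2, and 8.68 to 36.3 CPM in WT-HCD, with a median of 23.1. In miR-21OE-NCD it measured 23.99, 34.6 and 32.8 CPM, and in miR-21OE-HCD 24.2, 34.8 and 37.7 CPM. With TMM scaling, the WT values of PSMB6 fell into 2 sets by batch, 8.20 to 14.7 CPM in batches 1 to 4 and 22.2 to 36.3 CPM in batches 5 to 9. With library totals in place of TMM these 2 sets overlapped. PSMB7 (trypsin-like site) measured 30.4 to 67.9 CPM in WT-NCD, with a median of 47.2, and 27.03 to 67.2 CPM in WT-HCD, with a median of 48.2. In miR-21OE-NCD it measured 44.5, 65.4 and 56.0 CPM, and in miR-21OE-HCD 49.5, 62.2 and 55.4 CPM.

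None of the 3 catalytic subunits passed the threshold for either factor. For the diet in WT over 9 batches, the log2 fold-change (L2FC) was -0.09 for PSMB5 (95% confidence interval -0.30 to 0.12), -0.02 for PSMB6 (-0.28 to 0.24) and -0.09 for PSMB7 (-0.31 to 0.13). For miR-21OE averaged over both diets, L2FC was -0.04 for PSMB5 (-0.33 to 0.25), 0.09 for PSMB6 (-0.21 to 0.39) and -0.08 for PSMB7 (-0.34 to 0.18). The Benjamini-Hochberg adjusted P-value (padj) of edgeR over all genes lay between 0.683 and 0.959 in these 6 tests. With TMM scaling, each interval leaves out a change of 1.5-fold (0.58 on the log2 scale), and this bound was not examined for library totals. With library totals in place of TMM, the L2FC of the 3 genes for the diet became 0.27, 0.33 and 0.26, beside a median of 0.39 over all genes tested.

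To determine whether HCD alters proteasome genes in WT livers, WT-HCD and WT-NCD were compared over 9 batches with batch as a block. One of the 57 members tested rose, psma6l, and none fell. The background was 4.09% of 23934 genes tested that rose (978) and 3.4% that fell (813). At an unadjusted P below 0.05 there were 3 of 57 members, psma6l, psmb12 and PSMD10, beside 5051 of 23934 genes. The median L2FC was -0.01 over the members and 0.04 over all genes. Among the core subunits other than psma6l, L2FC ranged from -0.22 (PSMC2, a 19S ATPase) to 0.20 (psmd4b, a paralog of the ubiquitin receptor PSMD4), and for 37 of 38 core subunits the 95% confidence interval lay within 1.5-fold in either direction. Of the 57 members, 25 had a positive and 32 a negative L2FC. The scaling bears on this contrast. With library totals in place of TMM, 7 of 57 members rose (PSMB2, PSME2, PSMG2, psma2a, psma6l, psmb12 and psmd4b), against a background of 14.4% that rose, and the median L2FC was 0.33 over the members and 0.39 over all genes.

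**Figure D1:**
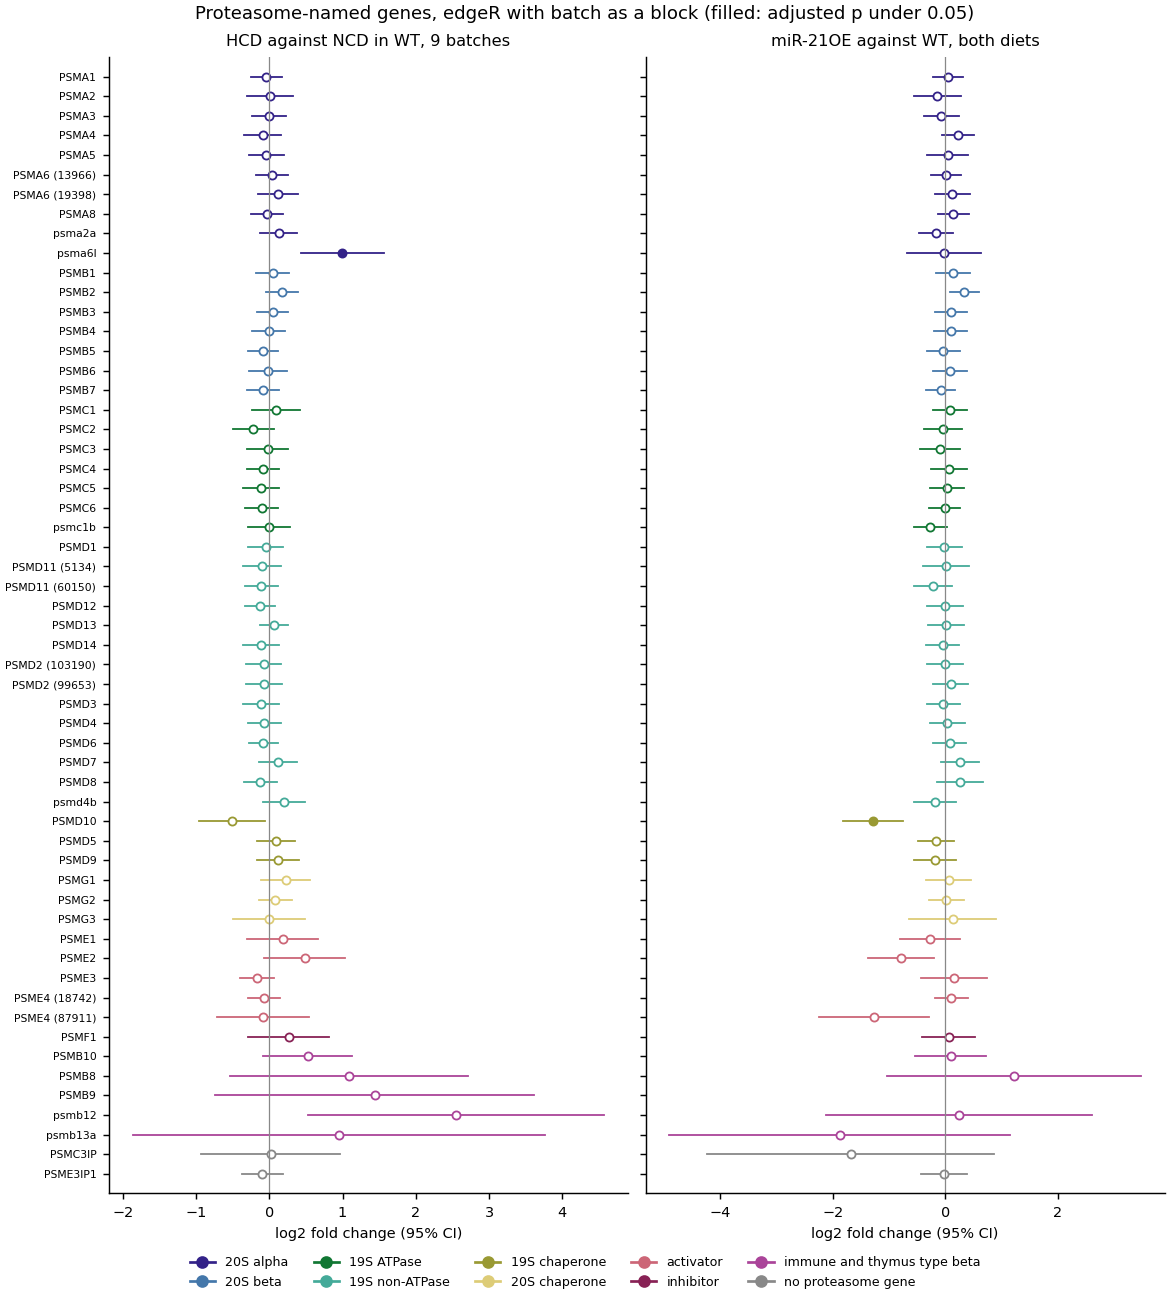
L2FC (x axis) of 57 members for HCD against NCD in WT over 9 batches (left) and of 56 members for miR-21OE against WT over both diets in batches 7 to 9 (right), by role. Points are edgeR estimates with batch as a block, lines are 95% confidence intervals, and filled points have an adjusted P below 0.05. The 2 filled points are psma6l (0.99, left) and PSMD10 (-1.29, right), and the core subunits other than psma6l lie between -0.27 and 0.34 in both panels.

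psma6l (ENSDARG00000043899), by its symbol a paralog of the 20S alpha subunit PSMA6, was counted low throughout. Over batches 1 to 9, WT-NCD measured 0.788, 1.09, 0.641, 0.882, 1.17, 1.71, 1.603, 0.807 and 1.79 CPM. WT-HCD measured 3.81, 1.48, 1.84, 1.29, 1.86, 4.41, 1.19, 2.94 and 2.92 CPM. The level was higher on HCD in 8 of 9 batches, batch 7 being the exception, and the groups overlapped. L2FC was 0.99 (standard error (SE) 0.26, padj 0.0374 in edgeR). The same contrast gave padj 0.0900 with no replicate block, when the whole member list had 0 calls against a background of 1.15%. DESeq2 gave padj 0.00791 with the block and 0.0232 without it. The WT-HCD libraries with the highest psma6l, batches 6 and 1, are those with the highest leukocyte markers. With TMM scaling they are also those with the lowest hepatocyte markers, which with library totals did not hold for batch 6. Without these batches, a choice made after seeing the data, L2FC was 0.72 and padj 0.217 in edgeR. Leukocyte markers were higher on HCD in all 9 batches, and their part in the result was not tested. With single batches left out, padj ranged from 0.0227 to 0.0952, and it stayed below 0.05 only without batch 7 or batch 9.

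In miR-21OE livers, psma6l measured 2.03, 2.48 and 2.93 CPM on NCD and 0.694, 1.84 and 1.38 CPM on HCD, so it was lower on HCD in 3 of 3 batches and the groups did not overlap. The L2FC of the diet in miR-21OE was -0.97 (SE 0.43, unadjusted P 0.0439, padj 1 in edgeR). The genotype-by-diet interaction of psma6l, a test of the difference between the diet effects in the 2 genotypes, was -1.60 (95% confidence interval -2.92 to -0.28, unadjusted P 0.0218, padj 1 in edgeR), so it did not pass the adjusted threshold. Within batches 7 to 9, the L2FC of the diet in WT was 0.63 (-0.32 to 1.57).

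**Figure D2:**
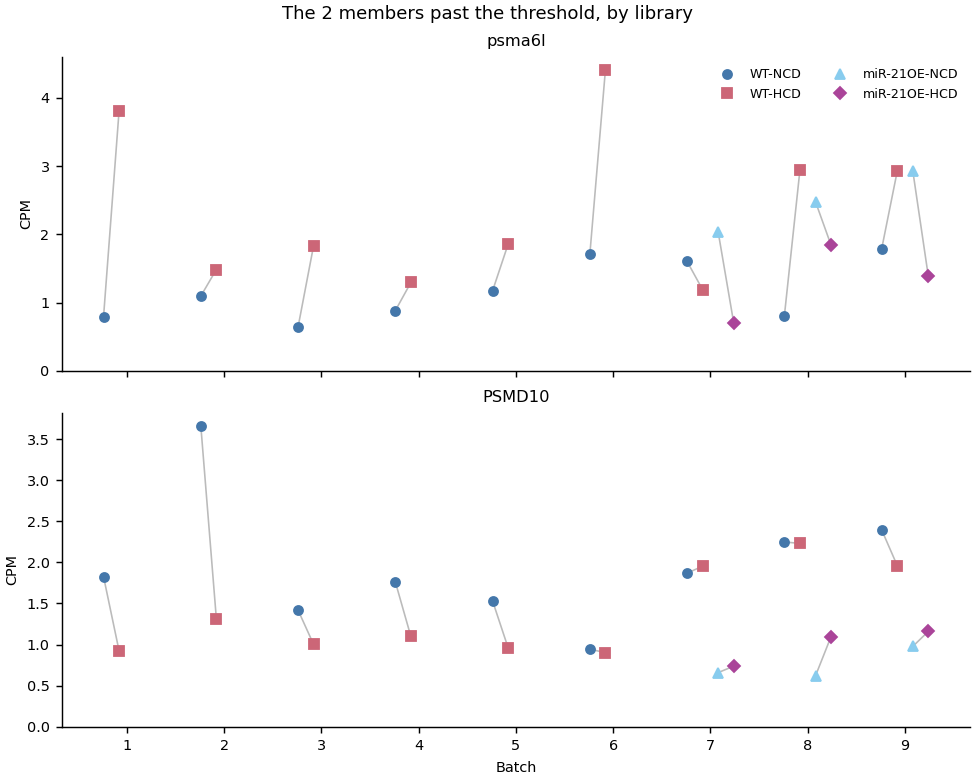
CPM (TMM-scaled, y axis) of psma6l and PSMD10 in each of the 24 libraries by batch (x axis), with grey lines joining the NCD and HCD library of one genotype in a batch. psma6l was higher in WT-HCD than WT-NCD in 8 of 9 batches and lower in miR-21OE-HCD than miR-21OE-NCD in 3 of 3, and in batches 7 to 9 the 6 miR-21OE libraries had 0.619 to 1.161 CPM of PSMD10, below the 1.87 to 2.40 CPM of the 6 WT libraries.

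In the 5 contrasts of batches 7 to 9 that are not averaged over diets, 0 of 56 members tested passed the threshold in edgeR. Comparing the diets in WT within these batches, the background past the adjusted threshold was 0.0831% of 21660 genes. An unadjusted P below 0.05 in edgeR was found for 0 of 56 members, beside 1382 of 21660 genes. The member with the lowest unadjusted P was PSMB2, a structural beta subunit (L2FC 0.28, SE 0.17, unadjusted P 0.120, padj 0.846). For miR-21OE on NCD the background past the adjusted threshold was 0.268%. Here 3 of 56 members had an unadjusted P below 0.05, PSMD10, PSMB2 and PSME4 (ENSDARG00000087911), beside 1830 of 21660 genes. For miR-21OE on HCD this background was 0.245%, and 2 of 56 members, PSME2 and PSMD10, had an unadjusted P below 0.05, beside 1796 of 21660 genes. Between the diets in miR-21OE it was 0.00923%, and 1 of 56 members, psma6l, had an unadjusted P below 0.05, beside 939 of 21660 genes. For the interaction the background was 0.0%, with 454 genes and 1 member (psma6l) at an unadjusted P below 0.05. DESeq2 with the block called 0 members for the diet in either genotype, for miR-21OE on HCD and for the interaction, and 1, PSMD10, for miR-21OE on NCD (background 0.988% that fell). At n = 3 per group, the intervals of core subunits were wider. They lay within 1.5-fold for 26 of 38 core subunits in the diet contrast in WT, and for 4 of 38 in the interaction.

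To determine whether miR-21 overexpression alters proteasome genes, miR-21OE and WT were then compared over both diets. One of 56 members fell, PSMD10, and none rose. The background was 0.923% of 21660 genes that fell (200) and 1.24% that rose (269). With no replicate block, 0 members passed, against a background of 0.388%. The median L2FC was 0.01 over the members and -0.00 over all genes. For 34 of the 38 core subunits the 95% confidence interval lay within 1.5-fold, and for all 38 it lay within 2-fold.

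PSMD10 (ENSDARG00000015628), also called gankyrin, is an ankyrin-repeat chaperone of the 19S base in mammals and yeast. Over batches 7, 8 and 9 it measured 1.87, 2.25 and 2.40 CPM in WT-NCD and 0.659, 0.619 and 0.977 CPM in miR-21OE-NCD. On HCD it measured 1.95, 2.23 and 1.96 CPM in WT and 0.738, 1.098 and 1.161 CPM in miR-21OE. All 6 miR-21OE libraries lay below all 6 WT libraries of these batches, and the counts behind these values were 13 to 55 per library. The order within the 6 pairs was the same with library totals. Endothelial markers were lower in the same 6 pairs, at 105.5, 91.2 and 93.1 CPM in miR-21OE-NCD against 146.7, 136.8 and 121.9 CPM in WT-NCD, and at 124.0, 115.7 and 110.2 CPM in miR-21OE-HCD against 143.6, 123.6 and 165.3 CPM in WT-HCD. Their part in the result was not tested. Averaged over diets, L2FC was -1.29 (SE 0.25, 95% confidence interval -1.82 to -0.76, padj 0.0185 in edgeR). On NCD it was -1.52 (SE 0.35, padj 0.126), and on HCD it was -1.06 (SE 0.34, padj 0.350). The averaged padj was 0.0550 with no replicate block and 0.000379 in DESeq2 with the block, and on NCD DESeq2 gave 0.0133. With single libraries left out, the averaged padj ranged from 0.0310 to 0.0591, and it exceeded 0.05 without WT-NCD of batch 8, WT-HCD of batch 8, miR-21OE-NCD of batch 7 or miR-21OE-NCD of batch 8. Without miR-21OE-NCD of batch 9, the library with the highest pancreas markers, L2FC was -1.37 (padj 0.0364).

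PSMD10 also had lower values on HCD in WT. Over batches 1 to 6 it measured 1.83, 3.67, 1.42, 1.76, 1.53 and 0.943 CPM in WT-NCD and 0.924, 1.32, 1.00, 1.098, 0.960 and 0.902 CPM in WT-HCD. It was lower on HCD in 8 of 9 batches, but the contrast did not pass the threshold (L2FC -0.51, SE 0.21, padj 0.168 in edgeR). With library totals it was lower in 6 of 9 batches, with L2FC -0.16 and padj 0.666. The 12 WT libraries of batches 1 to 6 overlapped the 6 miR-21OE libraries. The other 19S chaperones, PSMD5 and PSMD9, had averaged L2FC of -0.16 and -0.19 for miR-21OE and did not pass the threshold.

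Some members lay on the same side in all 6 within-batch pairs of miR-21OE and WT, of which PSMD10 alone passed the threshold in edgeR. PSMD10, PSME2 and PSME4 (ENSDARG00000087911) were lower in 6 of 6 pairs, 3 of 57 members against a background of 3.52% of all genes, and PSMB2 was higher in 6 of 6, 1 of 57 against 4.86%. With library totals PSME2 was lower in 5 of 6 pairs, and the counts of the other 3 genes were unchanged. PSME2 encodes a subunit of the interferon-induced PA28 cap. It measured 1.51, 1.44 and 2.004 CPM in WT-NCD, 0.862, 1.40 and 1.85 CPM in miR-21OE-NCD, 1.38, 2.23 and 2.72 CPM in WT-HCD and 0.391, 1.27 and 1.07 CPM in miR-21OE-HCD. The HCD groups did not overlap and the NCD groups did. L2FC was -1.24 on HCD (SE 0.38, unadjusted P 0.00695, padj 0.314 in edgeR) and -0.79 averaged (padj 0.191). PSMB2 measured 13.5, 19.1 and 21.9 CPM in WT-NCD and 19.3, 25.5 and 26.2 CPM in miR-21OE-NCD, and 18.2, 23.7 and 23.8 CPM in WT-HCD and 23.5, 28.5 and 27.1 CPM in miR-21OE-HCD. Its averaged L2FC was 0.34 (SE 0.12, padj 0.212 in edgeR).

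PSME4 encodes the PA200 activator, a cap known for binding acetylated histones in mammals. PSME4 (ENSDARG00000087911) measured 83.9, 8.53 and 2.92 CPM in WT-NCD of batches 7, 8 and 9 and 16.4, 5.41 and 2.83 CPM in miR-21OE-NCD. On HCD it measured 30.3, 13.2 and 8.89 CPM in WT and 5.60, 5.98 and 5.67 CPM in miR-21OE. The spread between batches of WT-NCD was wider than any difference between groups, and batch 7 held the largest difference. The averaged L2FC was -1.27 (SE 0.45, padj 0.205 in edgeR). DESeq2 with the block gave padj 0.0391, so that it called 2 members, PSMD10 and this gene, against a background of 2.51% that fell. In batches 5 and 6, PSME4 (ENSDARG00000087911) measured 67.6 and 58.5 CPM in WT-NCD and 39.0 and 22.5 CPM in WT-HCD, against 8.30 to 16.4 CPM in the 8 libraries of batches 1 to 4. The other copy, PSME4 (ENSDARG00000018742), measured 67.3 to 99.2 CPM in batches 1 to 4 and 105.0 to 169.1 CPM in batches 5 to 9, and its averaged L2FC for miR-21OE was 0.10 (padj 0.818).

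With TMM scaling, nearly all core subunits lay on the same side of the diet difference within several batches, and the side varied between batches. In batch 1, 37 of 38 core subunits were higher on HCD in WT, with a median difference of 0.51 in log2(CPM + 0.5), beside 55.4% and 0.08 for the 11697 genes averaging 50 counts or more. In batch 2, 3 of 38 were higher and the median was -0.41, beside 38.1% and -0.13. In batch 8, 36 of 38 were higher, with a median of 0.27 beside 0.00. In batches 4 and 9 the median was -0.23 and -0.18, with 4 and 7 of 38 higher, beside medians of -0.05 and 0.04 over all genes. In batches 3, 5, 6 and 7 the median ranged from -0.19 to 0.02. Of the 38 core subunits, 34 were higher on HCD in batch 1 and lower in batch 2. The share of all genes with both was not counted. Core subunits that were higher in all 9 batches numbered 0, and 0 were lower in all 9. Among all members, PSME3 was the only one lower on HCD in 9 of 9 batches (background 2.72%), and 0 were higher in 9 of 9 (background 2.86%). Its L2FC was -0.16 (95% confidence interval -0.39 to 0.07, padj 0.431 in edgeR), and it is named here after its values were seen. With library totals PSME3 was higher in 7 of 9 batches, so its direction depends on the scaling.

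Differences between miR-21OE and WT also varied in sign between batches. On NCD, 16, 36 and 7 of 38 core subunits were higher in miR-21OE in batches 7, 8 and 9. Their medians were -0.03, 0.35 and -0.28, beside -0.03, 0.00 and -0.02 over the 11697 genes averaging 50 counts or more. On HCD the medians were 0.06, -0.05 and 0.01 in batches 7, 8 and 9, beside 0.10, 0.01 and -0.03 over all these genes. The WT-NCD library is shared by the diet contrast in WT and the miR-21OE contrast on NCD, so the values of batches 8 and 9 in these contrasts are not independent. The side depends on the scaling. With library totals in place of TMM, 38, 19, 26, 20, 33, 38, 33, 37 and 12 of 38 core subunits were higher on HCD in WT of batches 1 to 9, where TMM gave 37, 3, 9, 4, 22, 14, 12, 36 and 7, so that batch 9 alone had fewer than 19 of 38 higher. The median of the core subunits relative to that of all genes moved less. It was 0.43 with TMM and 0.45 with library totals in batch 1, -0.28 with either in batch 2, 0.27 and 0.28 in batch 8, and -0.22 and -0.21 in batch 9.

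**Figure D3:**
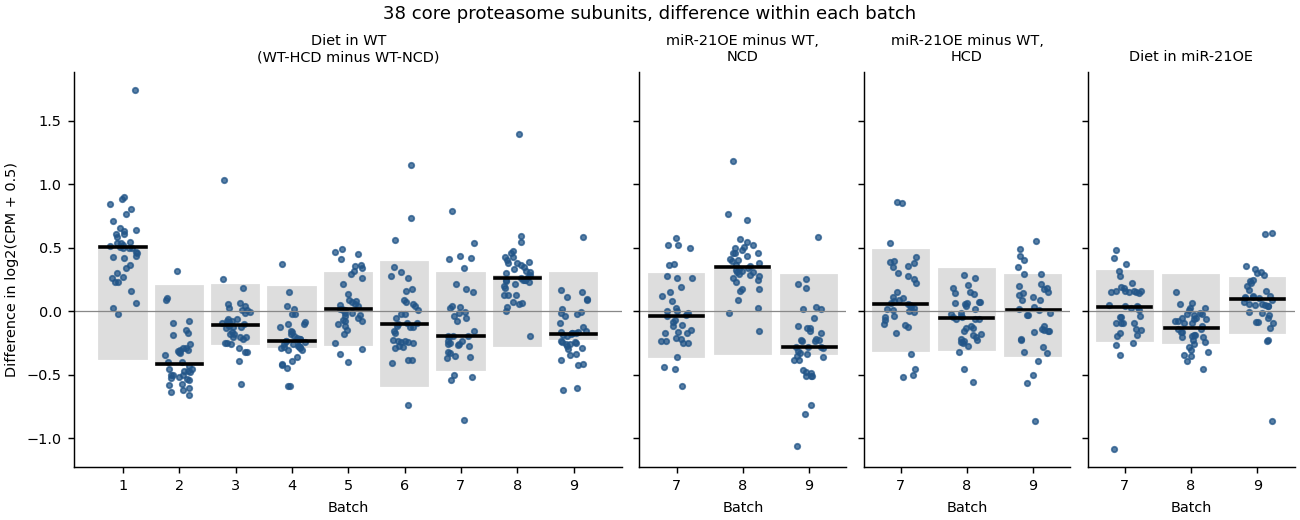
Difference in log2(CPM + 0.5) (y axis) of 38 core subunits within each batch (x axis) for the diet in WT, miR-21OE against WT on each diet, and the diet in miR-21OE. Points are genes, black lines their medians, and grey boxes the lower to upper quartile of 11697 genes averaging 50 counts or more. In WT, the median was 0.51 in batch 1, -0.41 in batch 2 and 0.27 in batch 8.

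Batch accounted for most of the variance of the core subunits. In the 12 libraries of batches 7 to 9, batch took a median of 64.9% of the variance of a core subunit on the log2 scale, genotype 2.01% and diet 0.817%, beside 34.9%, 6.50% and 3.86% for all genes averaging 50 counts or more. In the 18 WT libraries, batch took 86.9% and diet 0.679%, beside 75.1% and 4.51%. These shares are a description of TMM-scaled values with no test. They are not adjusted for the number of levels. Batch has more levels than diet or genotype, so it takes a larger share even with no effect. The highest genotype share among core subunits was 53.5%, for psmc1b.

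The batches fell into 2 sets by the level of the core subunits, the same sets as by the rn7sl1 share and by endothelial markers. The endothelial marker sum was 171.0 to 259.2 CPM in the 8 libraries of batches 1 to 4, above the 91.2 to 165.3 CPM of the 16 others, and it also did not overlap with library totals. The summed core level was 631.1 to 881.2 CPM in batches 1 to 4 and 1168 to 1992 CPM in batches 5 to 9. Every library of batches 5 to 9 exceeded every library of batches 1 to 4 for 19 of 57 members (background 4.34%), and the opposite held for 2 (background 3.07%). With library totals, the summed core level overlapped, at 813.5 to 1850 CPM against 921.3 to 1762 CPM. The 2 counts became 0 (background 0.622%) and 3 (background 7.72%), so the separation of these genes by batch depends on the scaling. Genotype and diet do not separate these sets, because WT libraries of both diets are in both. The part of rn7sl1 or of the endothelial markers in the split was not tested.

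The ratio of 19S to 20S counts within a library does not depend on the scaling. In batches 1 to 4 the summed 19S level divided by the summed 20S level was 1.49 to 1.71, against 1.80 to 2.50 in batches 5 to 9. The sum of the 21 genes of the 19S cap and that of the 17 genes of the 20S barrel thus differed unequally between the sets. Highly counted genes weigh most in these sums, and single genes of both parts varied, as given below. Among WT libraries of batches 5 to 9 the ratio was at least 2.03. Over all batches, the ratio was 2.01 ± 0.38 (SD, n = 9) in WT-NCD and 1.90 ± 0.27 (n = 9) in WT-HCD. These WT values include batches 1 to 4, which hold no miR-21OE library. In batches 7 to 9 it was 2.25 ± 0.14 (n = 3) in WT-NCD and 2.10 ± 0.09 (n = 3) in WT-HCD. There it was 2.07 ± 0.25 (n = 3) in miR-21OE-NCD and 2.09 ± 0.21 (n = 3) in miR-21OE-HCD, and the groups overlapped. On both diets the ratio was lower in miR-21OE than in WT in batches 7 and 9 and higher in batch 8.

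**Figure D4:**
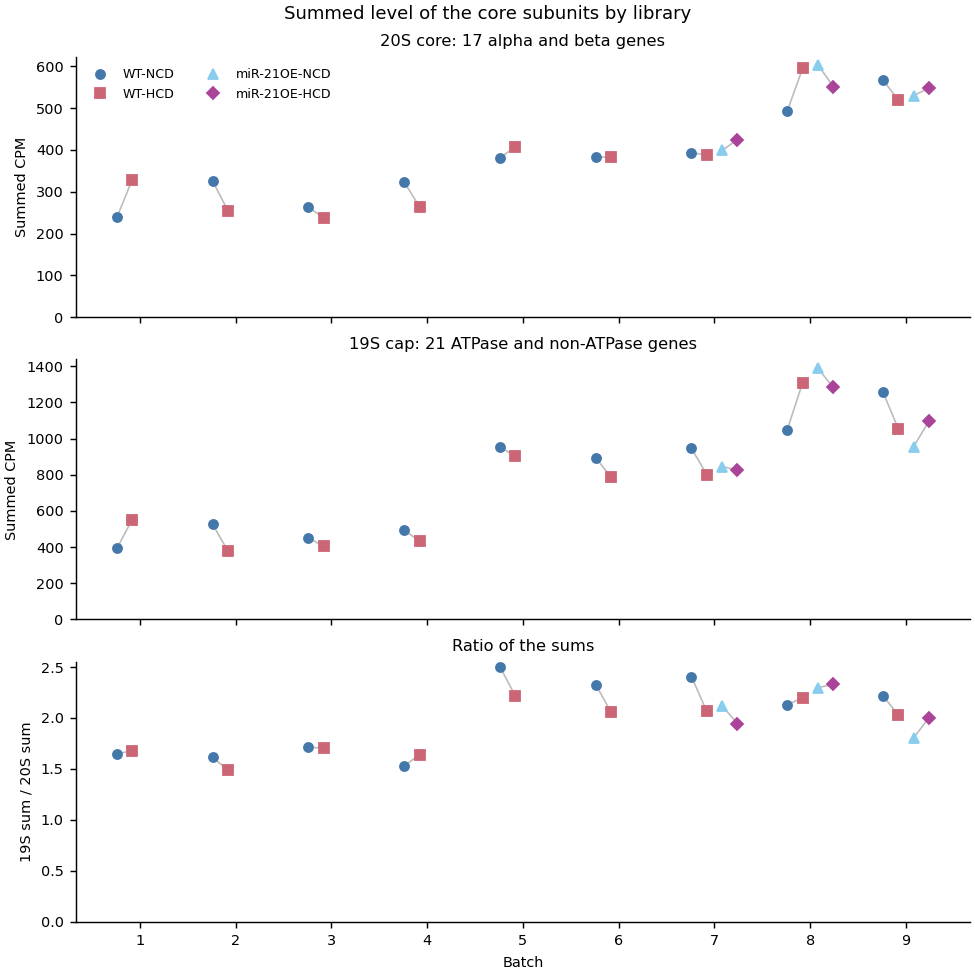
Summed CPM (TMM-scaled) of 17 genes of the 20S core (top), summed CPM of 21 genes of the 19S cap (middle) and the ratio of these sums (bottom) in each of the 24 libraries by batch, with grey lines joining the NCD and HCD library of one genotype in a batch. Batches 1 to 4 lie at a ratio of 1.49 to 1.71 and batches 5 to 9 at 1.80 to 2.50, and the groups overlapped within both sets.

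With TMM scaling, every library of batches 5 to 9 was higher for 14 of 38 core subunits, beside 4.34% of all genes. With library totals this held for 0 of 38, beside 0.622%, and the opposite for 1, beside 7.72%. The splits of single subunits below are therefore those of TMM scaling. Among the 19S ATPases, PSMC3 had a median of 23.8 CPM in batches 1 to 4 and 88.6 CPM in batches 5 to 9, and PSMC2 of 37.8 and 94.8 CPM. PSMC4 and PSMC5, ATPases of the same ring, overlapped, with medians of 31.2 and 42.6 CPM and of 18.5 and 31.4 CPM. Of the 14 non-ATPase subunits, 7 did not overlap. These were PSMD1, PSMD3, PSMD4, its paralog psmd4b, PSMD14, the deubiquitinase of the cap, and both copies of PSMD2. The copies PSMD2 (ENSDARG00000099653) and PSMD2 (ENSDARG00000103190) had counts in a ratio of 0.695 to 1.01 in every library, and the RefSeq gene table of GRCz12tu lists 1 psmd2, so they may share reads and their values are uncertain. PSMD12 and PSMD8, of the same cap, had medians of 12.5 and 12.1 CPM and of 12.4 and 10.1 CPM in the 2 sets. Of the 10 alpha subunits, 3 did not overlap, PSMA1, PSMA6 (ENSDARG00000019398) and PSMA8, for which the RefSeq table gives psma7 as a synonym. The other copy, PSMA6 (ENSDARG00000013966), had medians of 15.3 and 19.1 CPM, against 7.46 and 26.1 CPM for PSMA6 (ENSDARG00000019398). Of the 7 beta subunits, PSMB6 alone did not overlap.

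With TMM scaling, the 20S assembly chaperones went in opposite directions between the sets. PSMG1 measured 4.59 to 9.81 CPM in batches 1 to 4 and 18.2 to 51.0 CPM in batches 5 to 9. PSMG2, its binding partner in the early alpha-ring chaperone, measured 5.46 to 7.18 CPM and 7.45 to 13.9 CPM. PSMG3 measured 3.64 to 5.17 CPM and 0.491 to 1.68 CPM. The activator PSME3, the nuclear PA28 gamma in mammals, measured 6.997 to 8.43 CPM and 2.18 to 5.38 CPM. PSMG3 and PSME3 were also higher in every library of batches 1 to 4 with library totals. PSMG1 and PSMG2 overlapped between the sets with library totals, so their separation depends on the scaling. None of these 4 genes passed the threshold for diet or genotype in edgeR, in which batch is a block.

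The immune-type beta subunits replace the catalytic ones in cells exposed to interferon gamma, PSMB8 in place of PSMB5, PSMB9 in place of PSMB6 and PSMB10 in place of PSMB7. PSMB8 had 94 counts (2.17 CPM) in WT-HCD of batch 1, 15 (0.626 CPM) in WT-HCD of batch 3 and 0 to 10 in the other 22 libraries. PSMB9 had 30 counts (0.693 CPM) in WT-HCD of batch 1 and 0 to 6 in the others. The teleost genes psmb12 and psmb13a, which the RefSeq table lists beside psmb8a and psmb9a, had 37 and 17 counts (0.854 and 0.393 CPM) in WT-HCD of batch 1, and at most 11 and 6 elsewhere. These 4 genes were at or near the floor of 3 counts in most libraries. In GRCz12tu the RefSeq table lists psmb13a with a span that overlaps psmb8a, psmb12 and psmb9a, so reads of these genes may not be told apart in full. PSMB10, in contrast, was counted in all libraries. It measured 0.846 to 4.04 CPM in WT-NCD, with a median of 1.56, and 1.53 to 4.41 CPM in WT-HCD, with a median of 2.28. In miR-21OE it measured 2.28, 3.14 and 4.32 CPM on NCD and 2.04, 1.59 and 3.08 CPM on HCD.

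Between the diets in WT, psmb12 had the largest L2FC among the members, 2.55 (SE 0.93, 95% confidence interval 0.53 to 4.57), but did not pass the threshold (padj 0.127 in edgeR). It had 0 counts in 6 of 9 WT-NCD libraries, so the size of this estimate depends on the prior count of the fit. With batches 1 to 6 only it was the single member called, with padj 0.0454, against a background of 1.95% that rose, and without batches 1 and 6 its padj was 0.439. L2FC was 1.09 for PSMB8 (-0.53 to 2.71), 1.44 for PSMB9 (-0.74 to 3.62) and 0.52 for PSMB10 (-0.09 to 1.13), and none passed the threshold. For miR-21OE averaged over diets, L2FC was 1.22 for PSMB8 (-1.04 to 3.48) and 0.09 for PSMB10 (-0.54 to 0.73).

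PSME1, the partner of PSME2 in the PA28 cap, was highest in the same library, at 7.30 CPM in WT-HCD of batch 1, against 1.07 to 5.53 CPM in the other 23. PSME2 measured 6.35 CPM there, against 0.255 to 3.88 CPM elsewhere. The inhibitor PSMF1 (PI31) measured 8.73 and 9.05 CPM in WT-HCD of batches 1 and 3, against 1.61 to 5.81 CPM in the other 22 libraries. The L2FC of the diet in WT was 0.18 for PSME1 (-0.30 to 0.66), 0.48 for PSME2 (-0.07 to 1.03) and 0.27 for PSMF1 (-0.28 to 0.82), and none passed the threshold. WT-HCD of batch 1 is the library with the lowest hepatocyte and second highest leukocyte markers. WT-HCD of batch 6, the library with the highest leukocyte markers, had 8, 5, 7 and 0 counts of PSMB8, PSMB9, psmb12 and psmb13a. These counts are few, and the part of the markers in the values of either library was not tested.

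**Figure D5:**
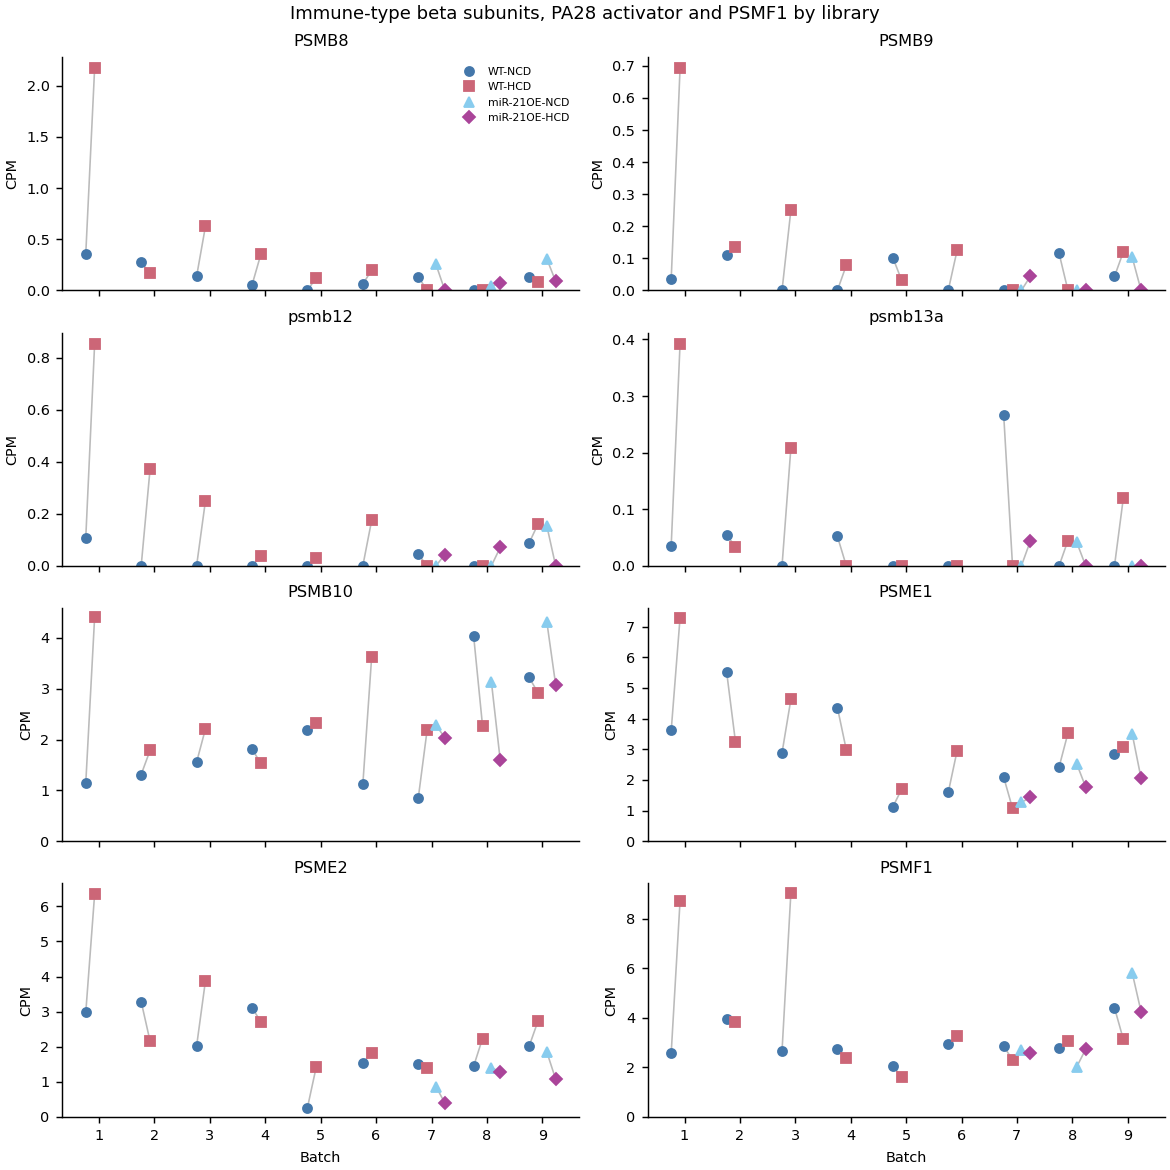
CPM (TMM-scaled, y axes differ) of 4 sparsely counted immune-type beta subunits, PSMB10, both PA28 subunits and the inhibitor PSMF1 in each of the 24 libraries by batch (x axis), with grey lines joining the NCD and HCD library of one genotype in a batch. WT-HCD of batch 1 was the highest library for each gene except PSMF1, which was highest in WT-HCD of batch 3 (9.05 CPM).

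Genes that work with the immune-type subunits in antigen presentation were examined as a list of 17. For the diet in WT, 1 of 16 tested rose and 0 fell, and the median L2FC was 0.51, beside 0.04 over all genes. Of all genes 4.09% rose, so 1 of 16 is near the background. The gene that rose was irf1b, an interferon regulatory factor. It measured 10.6 and 14.2 CPM in WT-HCD of batches 1 and 6, and 1.02 to 5.59 CPM in the other 7 WT-HCD libraries, against 0.750 to 3.67 CPM in WT-NCD, so the groups overlapped. The 2 highest libraries are again those with the highest leukocyte markers, which were higher on HCD in 9 of 9 batches and whose part in the result was not tested. Its L2FC was 1.40 (SE 0.36, padj 0.0353 in edgeR).

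Genes that deliver substrates to the proteasome or build and regulate it were examined as a list of 29, among them the ubiquitin genes, shuttle factors and the transcription factors of the NFE2L1 pair. For the diet in WT, 0 rose and 1 of 29 fell, beside 3.4% of all genes that fell, so the count is near the background. The median L2FC was -0.02. The gene that fell was the polyubiquitin gene ubb (ENSDARG00000093313), with L2FC -0.61 (SE 0.14, padj 0.0233 in edgeR). With TMM scaling ubb was lower on HCD in every WT batch except batch 3. UBB (ENSDARG00000002369) and ubc (ENSDARG00000102632), also in the list, did not pass the threshold. UBB was lower on HCD in every WT batch except batch 9, whereas ubc was higher in every WT batch except batch 7. The part of cell markers in these values was not tested. For miR-21OE averaged over diets, 2 of 29 rose, ECPAS and bag6, beside 1.24% of all genes that rose, and 0 fell, with a median of 0.02. ECPAS, a scaffold that binds both 19S and 20S, measured 42.3, 64.5 and 80.6 CPM in WT-NCD and 121.6, 177.3 and 159.7 CPM in miR-21OE-NCD of batches 7, 8 and 9. On HCD it measured 67.4, 90.3 and 83.8 CPM in WT and 107.9, 155.1 and 189.1 CPM in miR-21OE. All 6 miR-21OE libraries lay above all 6 WT libraries, in the pairs in which endothelial markers were lower, whose part was not tested. Its L2FC was 1.33 on NCD (SE 0.19, padj 0.0140) and 0.87 on HCD (SE 0.19, padj 0.112), and the test averaged over diets gave padj 0.00160 in edgeR. bag6 (ENSDARG00000075892), a chaperone that holds misfolded proteins for degradation, had an averaged L2FC of 0.74 (SE 0.16, padj 0.0318). The list also holds BAG6 (ENSDARG00000077531), which did not pass the threshold. That entry measured 10.2, 13.6 and 16.3 CPM in WT-NCD and 11.8, 15.3 and 12.4 CPM in miR-21OE-NCD. On HCD it measured 10.4, 11.9 and 19.8 CPM in WT and 16.8, 11.4 and 12.8 CPM in miR-21OE. NFE2L1 (ENSDARG00000030616), a transcription factor that raises proteasome genes when the proteasome is inhibited in mammals, had an averaged L2FC of -0.80 (SE 0.21, padj 0.0785) and did not pass the threshold. The other gene of this pair, nfe2l1b (ENSDARG00000076533), did not pass either. Over batches 7, 8 and 9 it measured 16.9, 9.11 and 13.2 CPM in WT-NCD and 12.3, 14.8 and 10.5 CPM in miR-21OE-NCD. On HCD it measured 8.77, 11.1 and 10.9 CPM in WT and 18.7, 10.3 and 12.4 CPM in miR-21OE. In the remaining contrasts, 0 genes of either list passed apart from ECPAS on NCD.

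PSME3IP1 and PSMC3IP encode partners of PSME3 and PSMC3. PSME3IP1 measured 2.15 to 3.43 CPM over all 24 libraries and PSMC3IP 0.00 to 0.523 CPM, with 0 counts in 6 libraries. Neither passed the threshold in any contrast.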

How the data were processed

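The deposited table held whole read counts per gene, made by the authors from rRNA-depleted, directional, paired-end libraries with cutadapt 1.16, STAR 2.7.9a and featureCounts 1.6.3 on GRCz11, as the submitters' processing notes list them. The strand setting of the counting is not given in the sources used here. Counts were not normalized. Symbols came from a table of gene IDs, in which 29201 of 32520 matched.

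Genes with at least 10 counts in total were fitted with edgeR 4.0.16 in R 4.3.3 (quasi-likelihood F-test, TMM scaling, two-sided, Benjamini-Hochberg adjustment over all genes tested, threshold 0.05), in 18 WT libraries and in the 12 libraries of batches 7 to 9. The SE was the L2FC divided by the square root of F. Batch was kept as a block. The labels give the batch, and libraries of one batch deviated together from their group means (mean correlation 0.440, lowest 0.150, over 18 pairs of the 12 libraries, and mean 0.608, lowest 0.385, over 9 WT pairs, across 11697 genes). The study's methods state no batch term. Each library pools larvae of a clutch. With batch as a block, P-values rest on the spread between these pools that remains after differences between batches are removed. CPM and within-batch differences used a pseudocount of 0.5 on the log2 scale. Depth was 16942574 to 36641566 counts, and intervals on 0 counts cover counting error only. The procedure was tested on simulated data. Alternatives were a fit with no replicate block, other scalings and filters, DESeq2 1.42.0, a fit of all 24 libraries and leaving out single batches or libraries.

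The members and gene lists were chosen with earlier results of these data known. Named members were the catalytic beta subunits and their counterparts, and, per contrast, up to 5 members of lowest adjusted P among those past the threshold, or else the member of lowest unadjusted P. Other members were named for their role, in a count or in a range. Promoter and protein sequences were not used here.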

Additional observations from a re-analysis of the deposited data

Results flagged for a closer look

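Named values in WT-NCD and WT-HCD were examined for a library far from the rest of its group by Dixon's test for 9 samples, in 38 tests. For normally distributed values chance flags about 1 in 20 groups, which need not hold for genes with few counts. There were 5 such values. In WT-HCD of batch 1, PSMB8 measured 2.17 CPM against 0 to 0.626 in the other 8 libraries of the group, PSMB9 0.693 CPM against 0 to 0.250, psmb12 0.854 CPM against 0 to 0.371, and PSME2 6.35 CPM against 1.38 to 3.88. In WT-NCD of batch 7, psmb13a measured 0.267 CPM, from 6 counts, against 0 to 0.0547. WT-HCD of batch 1 also had the lowest hepatocyte marker sum of the 24 libraries, 11678 CPM, and a leukocyte marker sum of 112.5 CPM. The 4 values of this library are not independent of each other, and the part of these markers in them was not tested.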

How the results depend on the processing

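For the diet in WT, the count of members called was 1 with batch as a block, 0 with no replicate block and 7 with library totals. In alternatives chosen after seeing the data, it was 0 in batches 1 to 6 with no replicate block, without batches 1 and 6, in batches 1 to 4 and in batches 5 to 9. Leaving out single batches gave 0 to 1, and psma6l was lost without batch 1, 2, 3, 4, 5, 6 or 8. For miR-21OE on NCD the count was 0, and 1 in DESeq2 with the block, in DESeq2 with no block and in the fit of all 24 libraries. For miR-21OE over both diets it was 1, 0 with no replicate block, 2 in DESeq2 with the block, and 0 to 1 with single libraries left out. In the other 4 contrasts the count was 0 under every alternative run.

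Over all genes, the number called for the diet in WT was 978 higher and 813 lower, 204 and 72 with no replicate block, 3455 and 365 with library totals, and 1422 and 1746 in DESeq2 with the block. For miR-21OE over both diets it was 269 and 200, 47 and 37 with no block, 363 and 122 with library totals, and 632 and 544 in DESeq2 with the block. Library totals moved the median of all genes to 0.39 and 0.11 in these contrasts. On NCD, miR-21OE had 26 and 32, and 201 and 214 in DESeq2 with the block. On HCD it had 30 and 23, and 206 and 134. The diet in WT of batches 7 to 9 had 5 and 13, and 74 and 110. The diet in miR-21OE had 0 and 2, and 22 and 30, and the interaction 0 and 0, and 7 and 1.

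PSMD10 had 13 to 67 counts per library and psma6l 14 to 176, so both calls rest on few reads. Among fits of batches 1 to 6, psmb12 was called with the block (1 member) and no member without it. In the 7 contrasts over their full sets of batches, the block changed no call of a member in edgeR other than those of psma6l and PSMD10. Why these settings differ was not tested.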
